A study of Mus musculus with 18 samples.

Results

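In the brains of mice that carried Tie2-cre and NuTRAP, RNA bound to tagged ribosomes was set against the RNA of the lysate it was pulled from. The positive fraction is the RNA recovered with an antibody to GFP, and the input is a portion of the same cleared lysate taken before the pull-down. The comparison holds 6 of the 18 libraries of the study, 3 positive and 3 input, numbered 421, 953 and 960 in the sample titles, with the fraction and the tissue given by the labels. It covers all 12919 genes of the brain table, and every difference is positive minus input. The other 12 libraries are the same fractions of retina and choroid, of which retina is used below for 1 comparison.

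All groups share 1 genotype, Tie2-cre+; NuTRAP+, and no treatment is given for any of them. The positive group is the antibody-bound fraction of brain at these alleles, and the input group is the total RNA of the same lysates at the same alleles. Each brain sample came from a portion of 1 dissected brain. The labels give neither age nor sex. Mice lacking the transgenes and mock pull-downs were not analysed here. The study's design text calls the samples biological replicates. The Tie2 promoter that drives Cre is active in endothelium and also in the blood lineage, so that tagged ribosomes can be present in blood-derived cells as well.

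NuTRAP is a Cre-dependent allele that, once recombined, produces ribosomal protein L10a fused to GFP, together with a nuclear tag. Pulling down the tagged ribosomes, a method called translating ribosome affinity purification, recovers the messenger RNA that those ribosomes carry. The endothelial cells of brain vessels form the blood-brain barrier: tight junctions close the space between cells, caveolar traffic is kept low, and named transporters bring in glucose, amino acids and other nutrients or pump drugs out. Wnt signalling from the surrounding tissue keeps this state in place. Microglia are the resident macrophages of brain tissue and descend from yolk-sac precursors.

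Values are CPM, counts scaled to the normalised size of each library within the brain table. A gene was called where edgeR's quasi-likelihood test gave a Benjamini-Hochberg adjusted p under 0.05 over all 12919 genes, and "higher" and "lower" below are such calls in the positive fraction. Fold changes are log2 values with the standard error of the fit, and values of single libraries run in the order 421, 953, 960. Members named as the few of a group that went against it, or that are not among its leading members by adjusted p, were chosen after their values were seen. A gene stands in the table only where every library of at least 1 fraction has at least 50 counts. That was met through both fractions by 11148 genes, through the positive fraction alone by 1601 and through the inputs alone by 170. Listing through the positive fraction alone favours a higher value there, and listing through the inputs alone a lower one, so for the groups below that rose, counts are given for members listed through both fractions. Genes named below that were listed through 1 fraction alone are marked as such, and their values are a description. In these bulk samples, fewer cells of a type and less RNA per cell cannot be told apart.

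Input 960 stood apart from the other inputs. Positive libraries held 28277853, 18618427 and 24503457 counts, and inputs 421, 953 and 960 held 32064355, 26555197 and 9596740. Over all genes the log2 CPM of input 960 correlated at 0.910 and 0.912 with inputs 421 and 953 (Pearson's r), whereas those inputs correlated at 0.995 with each other. The positive libraries correlated with each other at 0.984 to 0.991. The results are therefore also given without input 960 where that changes them.

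The 4 genes that mark the expected cell types behaved differently from each other. Pecam1, an adhesion receptor of endothelial cells (chr11:106654218-106715281, mm10), had 753, 864 and 575 CPM in the positive libraries and 13.5, 14.4 and 9.86 CPM in the inputs (log2 fold change 5.85 ± 0.27, adjusted p = 4.11e-05, edgeR with Benjamini-Hochberg adjustment). Slc2a1, the glucose transporter of the barrier (chr4:119108745-119137329), had 2429, 3291 and 2061 CPM in the positive libraries and 115, 111 and 122 CPM in the inputs (log2 fold change 4.48 ± 0.23, adjusted p = 4.12e-05). Both endothelial markers were higher in every positive library than in any input, and the inputs lay close together. Cx3cr1, the fractalkine receptor of microglia (chr9:120048683-120068296), had 602, 664 and 476 CPM in the positive libraries and 53.1, 53.1 and 90.1 CPM in the inputs (log2 fold change 3.15 ± 0.28, adjusted p = 0.000231). Opalin, a membrane glycoprotein of myelinating oligodendrocytes (chr19:41063420-41077113), had 2.77, 4.01 and 6.99 CPM in the positive libraries and 23.6, 20.8 and 24.9 CPM in the inputs (log2 fold change -2.33 ± 0.34, adjusted p = 0.00227). The microglial marker was thus higher in the pull-down as the endothelial ones were, and the oligodendrocyte marker lower, with no overlap between the fractions for any of the 4. Among these 4 markers the endothelial pair had the largest fold changes, and the microglial marker was high in the same libraries.

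**Figure D1:**
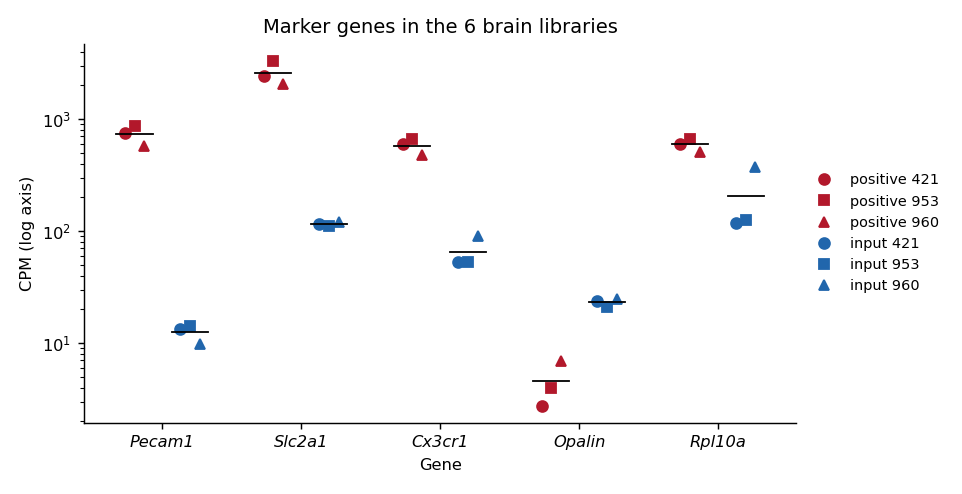
CPM on a log axis of Pecam1, Slc2a1, Cx3cr1, Opalin and Rpl10a in the 3 positive and the 3 input brain libraries, with 1 point per library and a bar at each mean. The positive points of Pecam1 lie at 575 to 864 CPM and its inputs at 9.86 to 14.4 CPM, and input 960 stands above the other inputs for Rpl10a.

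Rpl10a, the endogenous gene of the ribosomal protein that NuTRAP tags, had 606, 665 and 511 CPM in the positive libraries and 118, 125 and 375 CPM in the inputs (log2 fold change 1.53 ± 0.47, adjusted p = 0.0377). The groups did not overlap, and input 960 lay between the other inputs and the positive libraries. This call was lost when any 1 of the other 5 libraries was left out (adjusted p = 0.0771 to 0.145, edgeR). Whether reads from the transgene were counted for Rpl10a was not tested.

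In all, 5103 genes, 39.5% of those tested, differed between the fractions. Of these 2744 were higher (21.2%) and 2359 lower (18.3%), and at least 2-fold changes made up 1958 higher (15.2%) and 991 lower (7.67%) genes. Among the 11148 genes listed through both fractions 16.7% were higher and 19.9% lower, with a median log2 fold change of -0.13. The median over all genes was -0.07. In 55.3% of all genes the 3 positive and the 3 input values did not overlap. Without input 960 the counts were 4670 higher and 4642 lower, and they held all 2744 and 2359 genes called with it. The count of lower genes was 1490, 1488, 1005 and 1096 without input 421, input 953, positive 421 and positive 953, and that of genes at least 2-fold lower 656 and 567 without positive 421 and positive 953. Leaving out both fractions of 1 replicate gave 1502 higher and 215 lower genes without 421, 1291 and 164 without 953, and 4758 and 4860 without 960. Without both fractions of 421 or of 953, 23 genes named below lost calls that they kept under every other alternative (adjusted p = 0.0524 to 0.185): Apln, Cldn12, Ctnnb1, Egr1, Ermn, F3, Gp9, Lama2, Lmbrd2, Mal, Nefl, Neu4, Pdgfrb, Pf4, Ppap2b, Rian, Rps27l, Slc17a6, Slc1a3, Snap25, Ugt8a, Vtn and Xist.

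**Figure D2:**
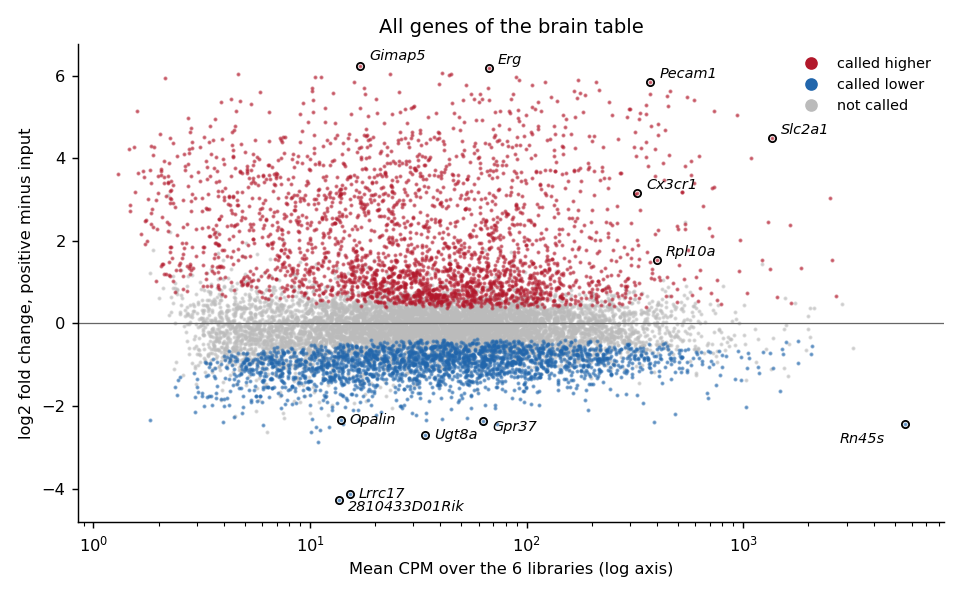
Log2 fold change (positive minus input, vertical) against mean CPM over the 6 brain libraries (horizontal, log axis), 1 point per gene, with called genes coloured and named genes labelled. The points spread further upwards than downwards: 1958 genes were called at least 2-fold higher and 991 at least 2-fold lower.

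The 12 highest fold changes were taken among called genes of at least 10 CPM on average whose fractions did not overlap. They were those of Gimap5, Erg, Slc52a3, Icam2, Bmx, AU021092, Apol10b, Gimap4, Robo4, Sema3g, Sox18 and Pecam1, at log2 fold changes of 5.85 to 6.24. Pecam1 is the one of these that was listed through both fractions. The riboflavin transporter Slc52a3 had 73.2, 93.6 and 74.0 CPM in the positive libraries and 1.29, 1.21 and 0.975 CPM in the inputs (log2 fold change 6.07 ± 0.21, adjusted p = 4.01e-05). Bmx, a tyrosine kinase of arterial endothelium, had 50.9, 47.4 and 39.5 CPM in the positive libraries and 0.540, 0.713 and 0.975 CPM in the inputs (log2 fold change 6.04 ± 0.26, adjusted p = 4.11e-05). Sema3g, a semaphorin of arterial endothelium, had 183, 215 and 145 CPM in the positive libraries and 3.39, 3.71 and 1.73 CPM in the inputs (log2 fold change 5.88 ± 0.33, adjusted p = 4.5e-05). The lack of overlap in these 3 genes was set by the rule that named them. Their low inputs are favoured by listing through the positive fraction alone.

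Of 32 listed pan-endothelial genes 18 were listed through both fractions, and all 18 were higher, with a median log2 fold change of 5.16. The other 14 were listed through the positive fraction alone. The summed level of the 32 genes was 11655 to 15800.1 CPM in positive libraries and 399.9 to 512 CPM in inputs. This sum is a description, since the listing of those 14 favours a higher value in the positive fraction. Eng, a co-receptor for TGF-beta family ligands (chr2:32646595-32682669), had 698, 865 and 623 CPM in the positive libraries and 15.8, 16.1 and 14.3 CPM in the inputs (log2 fold change 5.56 ± 0.21, adjusted p = 4.01e-05). Tie1, a receptor kinase of the same family as Tie2, had 430.4, 496 and 299.7 CPM in the positive libraries and 7.37, 7.88 and 6.07 CPM in the inputs (log2 fold change 5.83 ± 0.27, adjusted p = 4.11e-05). Nos3, which makes nitric oxide in endothelium, had 179.6, 213 and 166 CPM in the positive libraries and 7.31, 6.31 and 6.28 CPM in the inputs (log2 fold change 4.80 ± 0.18, adjusted p = 4.01e-05). The inputs of each were nearly level, and every positive library was above them. Tek, which encodes Tie2 itself, whose promoter drives the Cre, and which was listed through the positive fraction alone, had 392, 397 and 249.8 CPM in the positive libraries and 9.26, 7.06 and 5.09 CPM in the inputs (log2 fold change 5.58 ± 0.33, adjusted p = 5.21e-05); positive 960 was the lowest of the positive libraries and still far above every input.

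The transcription factors of the endothelial lineage followed. Of 24 listed, 11 were listed through both fractions, and 9 of these were higher, with a median of 4.11. Elk3, an ETS-family factor (chr10:93247416-93311159), had 169, 177 and 153 CPM in the positive libraries and 9.38, 9.74 and 9.97 CPM in the inputs (log2 fold change 4.11 ± 0.15, adjusted p = 4.01e-05). Both fractions were tight, and they did not overlap. Ets1, another ETS factor, had 244, 241 and 169 CPM in the positive libraries and 8.18, 8.42 and 7.04 CPM in the inputs (log2 fold change 4.78 ± 0.22, adjusted p = 4.11e-05). Klf4, a factor induced by shear stress, had 299, 335 and 222 CPM in the positive libraries and 8.57, 6.92 and 10.6 CPM in the inputs (log2 fold change 5.05 ± 0.27, adjusted p = 4.12e-05). The most abundant members that did not pass were Ets2 (0.43, adjusted p = 0.0582) and Nr2f2, a factor of venous identity (0.22, adjusted p = 0.448). Without input 960 Ets2 (0.40, adjusted p = 0.0191) and Nr2f2 (0.46, adjusted p = 0.00474) passed as well.

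The 250 bases before the start site are shown for 1 gene of 3 groups that rose: Eng for pan-endothelial genes, Elk3 for the transcription factors and C1qb for microglia. ETS factors, which act in both endothelial and myeloid cells, bind a GGAA core, and the capitals mark AGGAAG or its reverse complement CTTCCT. The sequences are those of RefSeq on GRCm38.p6 (the build named mm10), 5′ to 3′ on the gene's own strand, and end at the base before the start.
Eng, chr2:32646345-32646594, plus strand: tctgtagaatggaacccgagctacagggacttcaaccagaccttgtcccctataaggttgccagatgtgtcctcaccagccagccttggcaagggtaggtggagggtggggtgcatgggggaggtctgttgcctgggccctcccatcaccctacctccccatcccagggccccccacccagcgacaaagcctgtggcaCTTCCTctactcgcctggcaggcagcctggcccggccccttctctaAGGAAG
Elk3, chr10:93311160-93311409, minus strand: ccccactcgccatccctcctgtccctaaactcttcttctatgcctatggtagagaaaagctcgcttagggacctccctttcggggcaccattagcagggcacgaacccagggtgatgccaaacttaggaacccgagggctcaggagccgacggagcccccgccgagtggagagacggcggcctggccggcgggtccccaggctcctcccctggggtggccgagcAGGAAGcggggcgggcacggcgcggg
C1qb, chr4:136886201-136886450, minus strand: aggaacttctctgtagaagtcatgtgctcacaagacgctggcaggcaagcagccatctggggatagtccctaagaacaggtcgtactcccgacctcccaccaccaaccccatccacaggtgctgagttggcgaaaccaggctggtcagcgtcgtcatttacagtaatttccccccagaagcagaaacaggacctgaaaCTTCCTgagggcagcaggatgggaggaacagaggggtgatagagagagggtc
Counted back from the start site, the match begins at -52 and -6 in Eng, at -26 in Elk3 and at -52 in C1qb. Matches on either strand were found in 29.5% of all 32851 promoters of that length in the RefSeq table and in 27.9% of those of genes in the brain table. They were in 36.5% of the promoters of genes at least 2-fold higher (706 of 1932) and in 25.4% of those at least 2-fold lower (243 of 958). Among pan-endothelial promoters 12 of 26 held a match, among those of microglial genes 9 of 15, and among those of the endothelial transcription factors 5 of 19. These are letter matches and say nothing of binding.

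The transporters of the barrier rose in most cases. Of 27 listed, 22 were listed through both fractions, 18 of them higher and 1 lower, with a median log2 fold change of 2.77. Slco1a4, an organic anion transporter of the barrier, had 699, 841 and 527 CPM in the positive libraries and 22.1, 22.6 and 16.7 CPM in the inputs (log2 fold change 5.07 ± 0.26, adjusted p = 4.12e-05). Abcg2, a drug efflux pump, had 243, 309 and 184 CPM in the positive libraries and 11.3, 11.4 and 10.6 CPM in the inputs (log2 fold change 4.46 ± 0.24, adjusted p = 4.12e-05). Slc39a8, a metal ion importer, had 147, 170.5 and 112 CPM in the positive libraries and 4.44, 4.53 and 6.61 CPM in the inputs (log2 fold change 4.81 ± 0.26, adjusted p = 4.33e-05). No fraction overlapped the other for these 3. Mfsd2a, which carries lysolipids with docosahexaenoic acid, had 142, 201 and 125 CPM in the positive libraries and 23.6, 23.8 and 21.5 CPM in the inputs (log2 fold change 2.76 ± 0.22, adjusted p = 0.00013), a smaller change than for the pumps. Slc7a5, the large neutral amino acid carrier, had 1034, 1375 and 824 CPM in the positive libraries and 89.4, 84.7 and 38.4 CPM in the inputs (log2 fold change 3.92 ± 0.39, adjusted p = 0.00041), and its input 960 was less than the other inputs. The transferrin receptor Tfrc, used to carry iron and engineered antibodies across the barrier, had 66.2, 102 and 65.9 CPM in the positive libraries and 62.7, 74.4 and 68.9 CPM in the inputs (log2 fold change 0.18, adjusted p = 0.522); only positive 953 stood above the inputs. Lrp8, a receptor for apolipoprotein E and reelin, did not pass either (0.62, adjusted p = 0.219) but did without input 960 (0.28, adjusted p = 0.0246). The 1 lower member was Slc7a3, a cationic amino acid carrier (-0.70, adjusted p = 0.027), which did not pass with a replicate block (adjusted p = 0.0529) or without any 1 library other than input 960.

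Junction genes were mostly higher: of 16 listed, 14 were listed through both fractions, 11 higher and 3 lower, with a median of 2.27. Cldn5, the main claudin of brain endothelium, had 1451, 1599 and 1211 CPM in the positive libraries and 21.6, 22.5 and 78.2 CPM in the inputs (log2 fold change 5.13 ± 0.60, adjusted p = 0.000802). Input 960 held more Cldn5 than the other inputs and was still far below the positive libraries. Ocln, a tight junction protein, had 138, 159.9 and 96.0 CPM in the positive libraries and 10.4, 7.70 and 6.28 CPM in the inputs (log2 fold change 4.00 ± 0.29, adjusted p = 9.27e-05). F11r, junctional adhesion molecule A, had 192, 222 and 174 CPM in the positive libraries and 11.4, 8.74 and 9.32 CPM in the inputs (log2 fold change 4.32 ± 0.19, adjusted p = 4.11e-05). Neither gene's fractions overlapped. The lower members were Cldn12, a claudin (-0.74, adjusted p = 0.00449), Cgn, a cytoplasmic linker of tight junctions (-0.74, adjusted p = 0.0398), and Jam3, a junctional adhesion molecule (-1.14, adjusted p = 0.014). Of the 3, Cldn12 was the one still lower without positive 421 or positive 953, and the Cgn call was also lost with the block (adjusted p = 0.0542).

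In the Wnt/beta-catenin pathway of the barrier, 14 of 21 listed members were listed through both fractions, and 13 of these were higher (median 2.46). Among the targets and factors, Lef1, a nuclear partner of beta-catenin, had 166, 157 and 115 CPM in the positive libraries and 9.17, 8.42 and 11.1 CPM in the inputs (log2 fold change 3.94 ± 0.22, adjusted p = 4.5e-05). Foxf2, a forkhead factor of brain vessels, had 166, 197 and 146 CPM in the positive libraries and 3.51, 3.03 and 4.55 CPM in the inputs (log2 fold change 5.55 ± 0.24, adjusted p = 4.11e-05). Notum, a secreted Wnt deacylase induced by the pathway, had 37.1, 41.2 and 27.4 CPM in the positive libraries and 1.53, 1.64 and 1.73 CPM in the inputs (log2 fold change 4.44 ± 0.23, adjusted p = 4.12e-05). Foxf2, Notum and Fzd4 (3.06), a Wnt receptor, were listed through the positive fraction alone. Among the receptors and co-receptors, Gpr124 (log2 fold change 3.70 ± 0.35, adjusted p = 0.000309) and Reck (log2 fold change 3.87 ± 0.31, adjusted p = 0.000138), which together transmit the signal of Wnt7 ligands, were higher, and so was Lrp5 (3.65), with Ctnnb1, beta-catenin itself, at 1.06. Tnfrsf21 was the member that did not pass (0.21, adjusted p = 0.494).

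Genes of the arterial, capillary and venous segments were all represented. Of 15 listed arterial genes 6 were listed through both fractions and 3 were higher (median 1.74). Of 8 capillary genes, all listed through both, 7 were higher (median 2.66), the other being Tfrc. Of 11 venous genes 6 were listed through both and 4 were higher (median 1.96). Dll4, the Notch ligand of arteries, listed through the positive fraction alone, had 58.9, 71.0 and 44.1 CPM in the positive libraries and 1.74, 1.28 and 1.52 CPM in the inputs (log2 fold change 5.25 ± 0.26, adjusted p = 4.11e-05). Cxcl12, a chemokine of arterial and capillary endothelium, had 789, 899 and 633 CPM in the positive libraries and 35.3, 33.3 and 29.3 CPM in the inputs (log2 fold change 4.57 ± 0.21, adjusted p = 4.11e-05). Vwf, the clotting factor of large vessels and veins, had 621, 504 and 599 CPM in the positive libraries and 15.7, 10.9 and 21.2 CPM in the inputs (log2 fold change 5.18 ± 0.30, adjusted p = 4.97e-05). The fractions of these 3 genes did not overlap. Darc, the chemokine receptor of venules, had 52.5, 52.1 and 189 CPM in the positive libraries and 41.4, 38.6 and 54.8 CPM in the inputs (1.13, adjusted p = 0.131), and positive 960 alone stood above the inputs. Unc5b, a netrin receptor, had 77.6, 82.9 and 75.4 CPM in the positive libraries and 80.1, 76.8 and 73.5 CPM in the inputs (0.03, adjusted p = 0.853), with the fractions mixed. Hey1, a Notch target, passed only without input 960 (0.57 with it, adjusted p = 0.0834; 0.78 without it, adjusted p = 0.00303).

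Genes of growing or leaky vessels did not move as 1 group. Of 14 listed angiogenic and tip cell genes 7 were listed through both fractions, 3 higher and 1 lower, with a median of 0.03. Flt4, a VEGF receptor listed through the positive fraction alone, had 92.2, 98.0 and 74.7 CPM in the positive libraries and 3.69, 3.49 and 2.49 CPM in the inputs (log2 fold change 4.74 ± 0.22, adjusted p = 4.11e-05). Apln, a peptide of tip cells, was the lower member (log2 fold change -0.92 ± 0.18, adjusted p = 0.00743). Of 7 listed genes of fenestrated endothelium 5 were listed through both, 3 higher and 1 lower (median 1.02). Plvap, the diaphragm protein of fenestrae and a gene that barrier endothelium keeps low, had 46.8, 39.5 and 25.3 CPM in the positive libraries and 29.2, 27.9 and 34.5 CPM in the inputs (0.29, adjusted p = 0.377). Positive 960 was below every input, so the fractions overlapped, and without both fractions of 960 it was called higher (0.59, adjusted p = 0.00165). Igfbp3 (log2 fold change 1.76 ± 0.21, adjusted p = 0.000864) and Nrp1, a VEGF co-receptor (log2 fold change 2.05 ± 0.27, adjusted p = 0.00142), were higher, and Ppap2b, a lipid phosphatase, was lower (log2 fold change -1.27 ± 0.21, adjusted p = 0.00377).

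**Figure D3:**
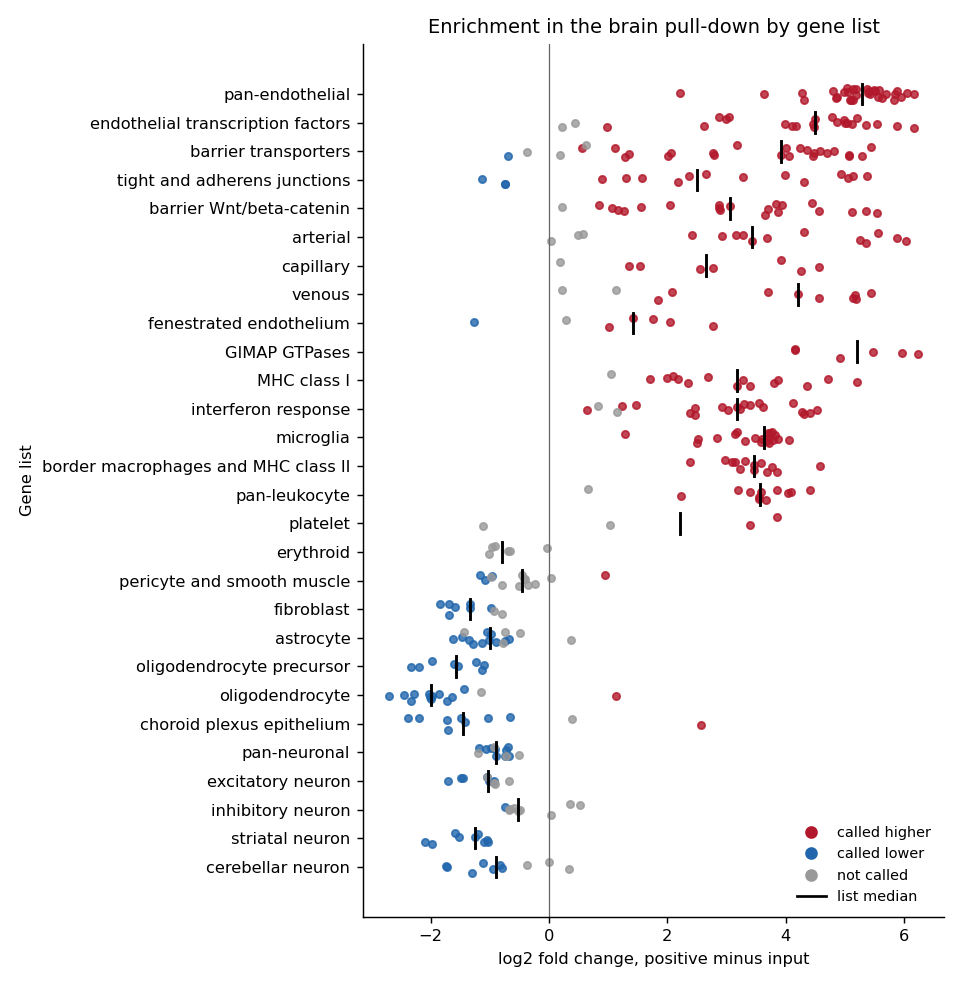
Log2 fold change (positive minus input) of every listed member of 28 gene groups, 1 point per gene and a bar at each median, with members called higher in red, lower in blue and the others in grey. The medians of endothelial, immune and interferon groups lie to the right of 0 and those of astrocyte, oligodendrocyte and neuronal groups to the left, with pan-endothelial genes at a median of 5.29 (5.16 for the 18 listed through both fractions) and oligodendrocyte genes at -1.99.

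Of 7 genes of caveolae and lipid handling listed through both fractions 5 were higher (median 2.71), although the barrier is known for little caveolar traffic. Cav1, which forms the coat, had 271, 364 and 239 CPM in the positive libraries and 12.5, 10.6 and 9.21 CPM in the inputs (log2 fold change 4.74 ± 0.24, adjusted p = 4.12e-05), and Ptrf, cavin-1, had 722, 870.3 and 569 CPM in the positive libraries and 29.9, 25.5 and 23.2 CPM in the inputs (log2 fold change 4.78 ± 0.24, adjusted p = 4.11e-05). The fatty acid genes Fabp5 (-0.36, adjusted p = 0.154, and -0.46, adjusted p = 0.018, without input 960) and Lpl (-0.57, adjusted p = 0.112, and -0.25, adjusted p = 0.0473, without input 960) did not pass.

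Among 13 listed basement membrane genes 8 were listed through both fractions, 4 higher and 2 lower (median 1.13). The laminin chain Lamb2 had 224, 285 and 183 CPM in the positive libraries and 30.4, 26.8 and 23.7 CPM in the inputs (log2 fold change 3.09 ± 0.22, adjusted p = 8.64e-05). Perlecan, Hspg2, listed through the positive fraction alone, had 76.3, 114 and 55.8 CPM in the positive libraries and 6.86, 5.74 and 3.90 CPM in the inputs (log2 fold change 3.87 ± 0.34, adjusted p = 0.000229). The laminin chains typical of vessels, Lama4 (2.96) and Lama5 (2.49), were higher too, both again listed through the positive fraction alone. Lama2, the chain that astrocytes and mural cells lay down, was lower (log2 fold change -1.55 ± 0.25, adjusted p = 0.00334), as was Lamb1 (-0.85, adjusted p = 0.0189), whose call was lost without input 421, positive 421 or positive 953 (adjusted p = 0.0586, 0.0581 and 0.0541). Agrin, Agrn, did not pass (0.66, adjusted p = 0.159, and 0.36, adjusted p = 0.0459, without input 960).

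In the Notch pathway 12 of 15 listed members were listed through both fractions and 5 were higher (median 0.53). Notch4, the endothelial receptor, had 155, 196 and 129 CPM in the positive libraries and 5.64, 5.53 and 7.58 CPM in the inputs (log2 fold change 4.70 ± 0.24, adjusted p = 4.12e-05), and the ligand Jag2 had 164, 195 and 131 CPM in the positive libraries and 36.5, 37.8 and 18.9 CPM in the inputs (log2 fold change 2.39 ± 0.30, adjusted p = 0.0012). Notch3, the mural receptor, had 9.46, 8.52 and 13.5 CPM in the positive libraries and 19.7, 16.8 and 6.39 CPM in the inputs (-0.46, adjusted p = 0.405, and -0.79, adjusted p = 0.0105, without input 960), and input 960 was below every positive library while the other inputs were above them. The nuclear partner Rbpj did not pass (0.49, adjusted p = 0.156).

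Of 16 listed genes of BMP and TGF-beta signalling, 15 were listed through both fractions, 11 higher and 2 lower (median 1.83). Acvrl1, the endothelial type I receptor, had 463, 558 and 377 CPM in the positive libraries and 13.2, 11.2 and 9.64 CPM in the inputs (log2 fold change 5.35 ± 0.24, adjusted p = 4.11e-05). The ligand Tgfb1 had 109.6, 135 and 92.3 CPM in the positive libraries and 6.92, 7.13 and 6.72 CPM in the inputs (log2 fold change 4.01 ± 0.19, adjusted p = 4.11e-05). The inhibitory Smad6 (4.26, listed through the positive fraction alone) and the targets Id1 (4.47) and Id3 (3.45) were higher. The lower members were the receptor Bmpr1a (-0.94, adjusted p = 0.0108; 0.0559 without positive 421) and Id2 (-1.05, adjusted p = 0.0475; 0.0716 with the block and 0.121 to 0.16 without any 1 positive library). The signal transducer Smad9 (-0.75, adjusted p = 0.0654) did not pass but did without input 960 (adjusted p = 0.000222) and with all libraries in DESeq2 (adjusted p = 0.0233).

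Genes of haemostasis and flow were higher in 7 of 9 members listed through both fractions and lower in 1 (median 3.66). Anxa2, an annexin that assembles plasmin on the cell surface, had 177, 229 and 206 CPM in the positive libraries and 15.2, 15.1 and 18.2 CPM in the inputs (log2 fold change 3.66 ± 0.18, adjusted p = 4.11e-05), whereas its partner S100a10 did not pass (0.41, adjusted p = 0.478, and 1.10, adjusted p = 5.65e-05, without input 960). Tissue factor, F3, which astrocytes produce in brain, was the lower member (log2 fold change -1.30 ± 0.23, adjusted p = 0.00482). Of the 13 listed genes of leukocyte adhesion and chemokines 8 were listed through both and 5 were higher (median 2.21). Icam1, an adhesion receptor listed through the positive fraction alone, had 54.0, 63.0 and 53.5 CPM in the positive libraries and 2.52, 2.39 and 2.28 CPM in the inputs (log2 fold change 4.56 ± 0.17, adjusted p = 4.01e-05), and the TNF receptor Tnfrsf1a had 109, 128 and 131 CPM in the positive libraries and 15.5, 14.3 and 17.2 CPM in the inputs (log2 fold change 2.97 ± 0.16, adjusted p = 4.12e-05). Cx3cl1, the neuronal ligand of Cx3cr1, had 362, 333 and 367 CPM in the positive libraries and 552, 517 and 405 CPM in the inputs (-0.47, adjusted p = 0.0615). Its positive libraries were below every input, and without input 960 it was lower (log2 fold change -0.60, adjusted p = 0.000769).

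Most listed genes of antigen presentation and of the interferon response were higher. Of 15 listed MHC class I genes 11 were listed through both fractions and 10 were higher (median 2.35). H2-D1, a classical class I chain, had 1129, 1167 and 964 CPM in the positive libraries and 106, 79.6 and 123 CPM in the inputs (log2 fold change 3.40 ± 0.22, adjusted p = 6.32e-05). H2-Q6 and H2-Q7 were higher as well (5.21 and 4.71), but were listed through the positive fraction alone. Class I genes are close paralogs, and the way reads were shared among them is uncertain. Psmb10, a subunit of the immunoproteasome, was the member that did not pass (1.06, adjusted p = 0.129), with 109, 128 and 106 CPM in the positive libraries and 30.0, 31.3 and 104 CPM in the inputs. Its input 960 alone came near the positive libraries, and without that library it was higher (1.89, adjusted p = 1.25e-05).

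Of 21 listed interferon response genes 15 were listed through both fractions and 13 were higher (median 2.47). Ifitm2, a membrane protein that blocks virus entry, had 123, 157 and 184 CPM in the positive libraries and 7.37, 7.27 and 7.26 CPM in the inputs (log2 fold change 4.41 ± 0.20, adjusted p = 4.11e-05). Gbp3, a guanylate-binding protein, had 115, 130.5 and 79.7 CPM in the positive libraries and 6.71, 4.17 and 8.02 CPM in the inputs (log2 fold change 4.13 ± 0.32, adjusted p = 0.000127). Irf9, which carries the interferon signal to the nucleus, had 69.8, 71.3 and 59.8 CPM in the positive libraries and 15.0, 10.3 and 10.9 CPM in the inputs (log2 fold change 2.46 ± 0.20, adjusted p = 0.000145). The fractions did not overlap for these 3. Ifi27l1 (0.83, adjusted p = 0.105, and 1.38, adjusted p = 2.54e-05, without input 960) and Xaf1 (1.15, adjusted p = 0.126) did not pass, and Xaf1 did without input 960 (2.05, adjusted p = 1.53e-05). Of the GIMAP family, small GTPases of endothelial and lymphoid cells, 6 were listed and the pair listed through both fractions was higher. Gimap6 had 249, 294 and 218 CPM in the positive libraries and 5.46, 5.42 and 6.18 CPM in the inputs (log2 fold change 5.49 ± 0.20, adjusted p = 4.01e-05), and Gimap1 had 119.8, 122 and 97.0 CPM in the positive libraries and 2.76, 3.17 and 5.74 CPM in the inputs (log2 fold change 4.92 ± 0.32, adjusted p = 6.32e-05). Endothelium, microglia and leukocytes all express genes of these groups, and their parts in these values were not tested.

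Immediate early genes divided. Of 14 listed through both fractions 5 were higher and 4 lower, with a median of 0.05. Of all genes listed in that way 16.7% were higher and 19.9% lower. Btg2, an antiproliferative gene, had 103, 106 and 71.0 CPM in the positive libraries and 22.3, 20.3 and 15.6 CPM in the inputs (log2 fold change 2.26 ± 0.23, adjusted p = 0.000398), and Ier3 had 82.7, 102 and 119.9 CPM in the positive libraries and 9.53, 8.49 and 20.3 CPM in the inputs (log2 fold change 3.02 ± 0.37, adjusted p = 0.001). Egr2, a zinc finger factor induced by neuronal activity, was lower, with 5.04, 5.40 and 4.13 CPM in the positive libraries and 12.9, 12.2 and 14.6 CPM in the inputs (log2 fold change -1.45 ± 0.19, adjusted p = 0.00146), and Egr1 was lower too (log2 fold change -1.11 ± 0.17, adjusted p = 0.00276). The other lower members are also genes of neuronal activity: Npas4 (-1.03, adjusted p = 0.0162) lost its call without input 953 or positive 421, and Arc (-1.01, adjusted p = 0.0233) with the block and without any 1 library other than input 960. Without input 953 or positive 421 the count of lower members was 2. Junb (0.24, adjusted p = 0.402, and 0.49, adjusted p = 0.00194, without input 960) and Jund (0.23, adjusted p = 0.486, and 0.51, adjusted p = 0.00694, without input 960) were the most abundant members that did not pass.

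Microglial genes were higher as a whole. Of 20 listed members 19 were listed through both fractions, and all 19 were higher, with a median log2 fold change of 3.69. P2ry13 was listed through the positive fraction alone. Their summed level was 8467 to 11236.5 CPM in positive libraries and 721 to 1218 CPM in inputs, where input 960 was the highest. C1qb, a chain of complement C1q (chr4:136880145-136886177), had 1141, 1307 and 1080.0 CPM in the positive libraries and 70.2, 59.2 and 83.6 CPM in the inputs (log2 fold change 4.05 ± 0.20, adjusted p = 4.11e-05). Tmem119, a surface protein of microglia, had 352, 431 and 294 CPM in the positive libraries and 24.5, 26.4 and 29.9 CPM in the inputs (log2 fold change 3.74 ± 0.21, adjusted p = 4.5e-05). Fcrls, a receptor of mouse microglia, had 375, 396 and 314 CPM in the positive libraries and 24.6, 21.8 and 32.9 CPM in the inputs (log2 fold change 3.78 ± 0.22, adjusted p = 5.17e-05). None of the 19 microglial genes listed through both fractions overlapped between the fractions, beside 55.3% of all genes without overlap. P2ry12, the purinergic receptor of resting microglia, had 154, 179.5 and 103 CPM in the positive libraries and 23.4, 20.4 and 32.4 CPM in the inputs (log2 fold change 2.52 ± 0.28, adjusted p = 0.000607). No defining marker of microglia was at 0 in any library. The minimum count for listing excludes 0 for the 19 members listed through both fractions, so their lack of a 0 carries no information.

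Genes of border macrophages, MHC class II and leukocytes followed the microglial ones. Of 13 listed genes of border macrophages and MHC class II, 5 were listed through both fractions and all 5 were higher (median 3.23). Stab1, a scavenger receptor, had 178, 198 and 145 CPM in the positive libraries and 18.3, 17.2 and 11.5 CPM in the inputs (log2 fold change 3.46 ± 0.24, adjusted p = 8.03e-05), and the mannose receptor Mrc1, listed through the positive fraction alone, had 48.6, 45.8 and 37.1 CPM in the positive libraries and 3.96, 3.49 and 4.55 CPM in the inputs (log2 fold change 3.47 ± 0.19, adjusted p = 4.5e-05). The summed level of these 13 was 798 to 1027 CPM in positive libraries and 66.7 to 114 CPM in inputs. This sum is a description, since 8 of the 13 were listed through the positive fraction alone, which favours a higher value there. Of 12 listed pan-leukocyte genes 7 were listed through both and 6 were higher (median 3.66). Vav1, an exchange factor of haematopoietic cells, had 70.0, 86.8 and 66.6 CPM in the positive libraries and 5.82, 6.53 and 6.18 CPM in the inputs (log2 fold change 3.59 ± 0.17, adjusted p = 4.11e-05), and Cd53, a leukocyte tetraspanin, had 77.0, 89.7 and 64.3 CPM in the positive libraries and 6.56, 5.38 and 6.28 CPM in the inputs (log2 fold change 3.66 ± 0.19, adjusted p = 4.12e-05). Coro1a, an actin regulator that neurons also express, did not pass (0.65, adjusted p = 0.0829) except without input 960 (0.99, adjusted p = 8.12e-05).

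Red cell transcripts were not pulled down in step with these. None of the 6 listed erythroid genes passed in edgeR or in DESeq2, and none had an unadjusted p under 0.05, with a median of -0.80. Hba-a1, an alpha globin, had 169.8, 355 and 290.5 CPM in the positive libraries and 149.7, 289 and 850.0 CPM in the inputs (-0.66, adjusted p = 0.433). In replicates 421 and 953 the fractions were close to each other, and input 960 was far above its own positive library. Without that library the value was 0.31. Globin genes are near-identical copies, so how their reads were shared is uncertain. Of 4 listed platelet genes Pf4 (log2 fold change 3.86 ± 0.66, adjusted p = 0.00438) and Gp9 (log2 fold change 3.40 ± 0.61, adjusted p = 0.0052) were higher, and both were listed through the positive fraction alone. Pf4 is also a member of the border macrophage and MHC class II group above. Gp1bb did not pass (-1.11, adjusted p = 0.112) except without input 421 (-1.44, adjusted p = 0.0478). Nor did Itga2b, listed through the positive fraction alone (1.03, adjusted p = 0.104), except without input 960 (1.41, adjusted p = 0.0137) and with the block (0.97, adjusted p = 0.0306).

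Genes of cells that share the vessel wall with endothelium were not higher as a group. Of 13 listed genes of pericytes and smooth muscle 3 were lower and 1 higher, with a median of -0.46. Over all genes 18.3% were lower and 21.2% higher, so that the share of lower members was near that of all genes. Pdgfrb, the receptor of pericytes, had 6.33, 6.63 and 8.95 CPM in the positive libraries and 18.0, 14.4 and 16.9 CPM in the inputs (log2 fold change -1.17 ± 0.21, adjusted p = 0.00483). Vtn, vitronectin of pericytes, had 36.0, 33.2 and 44.3 CPM in the positive libraries and 76.9, 72.7 and 72.0 CPM in the inputs (log2 fold change -0.97 ± 0.15, adjusted p = 0.00323). Positive libraries were below every input for both. The higher member was the myosin kinase Mylk (0.95, adjusted p = 0.0111; 0.0542 without positive 421 and 0.0663 without positive 953). The third lower member was Cspg4 (-1.09, adjusted p = 0.0373), a call lost with the block (0.0592) and without either of inputs 421 and 953 or positives 421 and 953 (adjusted p = 0.0903 to 0.13). Without input 960 there were 6 lower members, beside 4642 of all 12919 genes. Rgs5, listed through the positive fraction alone because input 960 fell short of the minimum, had 11.2, 8.35 and 10.1 CPM in the positive libraries and 19.8, 19.6 and 2.17 CPM in the inputs (-0.51, adjusted p = 0.575, and -0.98, adjusted p = 0.000746, without input 960), with input 960 far below the other inputs.

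Fibroblast genes were lower in 7 of 9 listed, with a median of -1.34 and a summed level of 357 to 585 CPM in positive libraries and 1043 to 1692 CPM in inputs. Fmod, fibromodulin, had 8.96, 7.68 and 11.3 CPM in the positive libraries and 34.5, 27.9 and 27.8 CPM in the inputs (log2 fold change -1.69 ± 0.20, adjusted p = 0.000884), and Dcn, decorin, had 8.24, 5.40 and 10.3 CPM in the positive libraries and 26.0, 22.5 and 38.2 CPM in the inputs (log2 fold change -1.84 ± 0.31, adjusted p = 0.00387). Every positive library lay below every input for both. The count was 4 with the block, 4 without input 421 or input 953, and 3 without positive 421 or positive 953. Igf2 (-0.93, adjusted p = 0.0625, and -1.23, adjusted p = 0.000116, without input 960) and Col6a1 (-0.80, adjusted p = 0.152, and -1.13, adjusted p = 0.00142, without input 960) did not pass.

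Oligodendrocyte genes were the most depleted of the glial groups, by median: 12 of 14 listed were lower, with a median of -1.99. Their summed level was 1557, 1890 and 3002 CPM in positive libraries 421, 953 and 960, against 5531, 5920 and 5739 CPM in inputs. Positive 960 therefore held the most of these transcripts. Ugt8a, which makes myelin galactolipids, had 5.47, 6.29 and 15.5 CPM in the positive libraries and 65.7, 73.1 and 38.6 CPM in the inputs (log2 fold change -2.70 ± 0.46, adjusted p = 0.00437). Gpr37, a receptor of oligodendrocytes, had 14.4, 18.7 and 28.6 CPM in the positive libraries and 107, 113 and 96.7 CPM in the inputs (log2 fold change -2.36 ± 0.27, adjusted p = 0.000688). Mobp did not pass (-1.14, adjusted p = 0.0694) but did without input 960 (-1.48, adjusted p = 0.00108) and with all libraries in DESeq2 (adjusted p = 0.0173). Mal, a myelin proteolipid that other cell types use in membrane sorting, went the other way, with 518, 639 and 526 CPM in the positive libraries and 273, 275 and 221 CPM in the inputs (log2 fold change 1.13 ± 0.17, adjusted p = 0.00245).

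All 8 listed genes of oligodendrocyte precursors were lower (median -1.58), 5 of them without positive 421 and 5 without positive 953. Pdgfra, the growth factor receptor of precursors, had 8.42, 9.02 and 15.5 CPM in the positive libraries and 61.6, 51.7 and 38.8 CPM in the inputs (log2 fold change -2.21 ± 0.30, adjusted p = 0.00162), and Neu4, a sialidase, had 2.23, 4.40 and 5.19 CPM in the positive libraries and 12.7, 11.3 and 11.9 CPM in the inputs (log2 fold change -1.61 ± 0.32, adjusted p = 0.0079). Of 16 listed astrocyte genes 11 were lower (median -0.99), with 5 lower without positive 421 and 5 without positive 953. Slc1a3, a glutamate transporter, had 209.7, 214 and 289.9 CPM in the positive libraries and 668, 604 and 460.2 CPM in the inputs (log2 fold change -1.28 ± 0.21, adjusted p = 0.00394), and Agt, angiotensinogen, had 25.4, 21.7 and 36.9 CPM in the positive libraries and 79.6, 73.0 and 80.5 CPM in the inputs (log2 fold change -1.47 ± 0.22, adjusted p = 0.00232). The positive and input values of these 4 genes did not overlap. Glul, glutamine synthetase, had 2191, 2510.3 and 2501 CPM in the positive libraries and 1905, 1923 and 1752 CPM in the inputs (0.37, adjusted p = 0.0791, and 0.33, adjusted p = 0.0303, without input 960), with every positive library above every input.

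Neuronal genes were lower in most groups. Of 13 listed pan-neuronal genes 9 were lower (median -0.89), 4 without positive 421 and 5 without positive 953. Snap25, of the synaptic vesicle fusion machinery, had 1565, 1355 and 1691 CPM in the positive libraries and 2466, 2497 and 2712 CPM in the inputs (log2 fold change -0.73 ± 0.15, adjusted p = 0.00902). Nefl, a neurofilament, had 215, 209.9 and 294 CPM in the positive libraries and 479, 538 and 492 CPM in the inputs (log2 fold change -1.07 ± 0.18, adjusted p = 0.0042). Of 10 listed excitatory genes 6 were lower (median -1.03) and all 10 without input 960. Slc17a6, the vesicular glutamate transporter of subcortical neurons, had 52.5, 41.0 and 44.2 CPM in the positive libraries and 100.1, 102 and 82.0 CPM in the inputs (log2 fold change -1.05 ± 0.16, adjusted p = 0.00294), with no overlap between the fractions. Slc17a7, the vesicular glutamate transporter of cortex, had 391, 312 and 477 CPM in the positive libraries and 928, 872 and 416 CPM in the inputs (-0.91, adjusted p = 0.0657), and was lower without input 960 (-1.19, adjusted p = 0.000645).

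All 9 listed genes of striatal neurons were lower (median -1.25), 5 without positive 421 and 5 without positive 953. Drd1a, a dopamine receptor, had 6.69, 3.95 and 8.34 CPM in the positive libraries and 26.2, 30.8 and 24.3 CPM in the inputs (log2 fold change -2.09 ± 0.29, adjusted p = 0.00165), and Adora2a, an adenosine receptor, had 9.93, 12.0 and 16.2 CPM in the positive libraries and 36.9, 38.3 and 38.8 CPM in the inputs (log2 fold change -1.58 ± 0.21, adjusted p = 0.00132). Of 10 listed cerebellar genes 7 were lower (median -0.89). Gabra6, a granule cell receptor subunit, had 25.4, 19.8 and 31.7 CPM in the positive libraries and 95.7, 77.0 and 81.0 CPM in the inputs (log2 fold change -1.72 ± 0.21, adjusted p = 0.000921). None of these 3 overlapped between fractions. Of 9 listed inhibitory genes Gad2 alone was lower (-0.74, adjusted p = 0.0351), and it was not called with the block (adjusted p = 0.0745) or without any 1 library other than input 960, and 3 were lower without that library. Parvalbumin, Pvalb, had 188, 164 and 199 CPM in the positive libraries and 159, 145 and 529 CPM in the inputs (-0.59, adjusted p = 0.381), with input 960 far above the rest, and without that library it was higher (0.28, adjusted p = 0.0471).

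Choroid plexus epithelium, a secretory tissue inside the brain ventricles whose capillaries are fenestrated, was lower in 8 of 10 listed genes and higher in 1 (median -1.46), and 5 were lower without positive 421. With all libraries, the 5 members listed through both fractions were all lower (median -1.71). Of all genes listed through both fractions 19.9% were lower. Enpp2, autotaxin, had 100.2, 126 and 175 CPM in the positive libraries and 436, 436 and 448 CPM in the inputs (log2 fold change -1.72 ± 0.23, adjusted p = 0.00138), and Kl, klotho, had 6.84, 6.52 and 8.30 CPM in the positive libraries and 24.6, 25.7 and 20.6 CPM in the inputs (log2 fold change -1.71 ± 0.18, adjusted p = 0.000519). The higher member was Trpv4, a cation channel that endothelium also has and that was listed through the positive fraction alone, with 19.4, 20.2 and 18.8 CPM in the positive libraries and 3.09, 3.14 and 3.68 CPM in the inputs (log2 fold change 2.57 ± 0.17, adjusted p = 7.26e-05).

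The 12 lowest fold changes were taken among called genes of at least 10 CPM on average whose fractions did not overlap. Called genes with overlapping fractions are therefore not among the 12, whatever their fold change. Oligodendrocyte genes (Ugt8a, Ermn and Gpr37) stood there beside a ribosomal RNA precursor, Rn45s. Rn45s had 1846, 1522 and 1866 CPM in the positive libraries and 7638, 4652 and 15994 CPM in the inputs (log2 fold change -2.43 ± 0.44, adjusted p = 0.00552). For the pair with the lowest values, 2810433D01Rik (-4.28) and Lrrc17 (-4.12), input 960 was far above the other inputs, both were listed through the inputs alone, and without input 960 their values were -2.82 and -2.55. Lrrc17 had 1.69, 0.780 and 2.33 CPM in the positive libraries and 8.87, 10.4 and 67.4 CPM in the inputs, and the calls of both were lost without positive 421 or positive 953 (adjusted p = 0.0523 to 0.0692). For Klhl11, Sv2c, Zbed6 and Lmbrd2 input 960 was instead nearer to the positive libraries than to the other inputs. Without any 1 positive library the first 3 of these lost their call (adjusted p = 0.0561 to 0.0915), and Sv2c and Zbed6 also with the block (0.075 and 0.0536). Klhl11 and Sv2c were listed through the positive fraction alone and Lmbrd2 through the inputs alone. Lmbrd2 had 2.88, 2.67 and 4.05 CPM in the positive libraries and 25.5, 24.5 and 6.93 CPM in the inputs (log2 fold change -2.58 ± 0.50, adjusted p = 0.00689).

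The calls of ribosomal and mitochondrial genes depended on input 960. With all libraries 9 of 77 ribosomal protein genes were higher, with a median of 0.46, and without input 960 there were 76. The count was 1 to 5 without any 1 of the other libraries. Rpl13a had 886, 953 and 813 CPM in the positive libraries and 413, 440.0 and 1104 CPM in the inputs (0.44, adjusted p = 0.404), and without input 960 it was higher (1.05, adjusted p = 0.000126). Rps27l, a ribosomal protein paralog, was higher with every library left out in turn, with 43.8, 51.4 and 41.6 CPM in the positive libraries and 9.89, 11.8 and 19.0 CPM in the inputs (log2 fold change 1.77 ± 0.26, adjusted p = 0.00238). Of 78 nuclear genes of the respiratory chain Atp5g2 (0.62, adjusted p = 0.0271) and Atp5j (0.58, adjusted p = 0.0447) were higher and Ndufs1 (-0.41, adjusted p = 0.0433) lower, calls that were all lost with the block and without any 1 library other than input 960. Without input 960 there were 41 higher and 4 lower. Of 16 glycolytic genes 2 were higher and 2 lower, and 5 and 6 without input 960. Over all 12919 genes, leaving out that library raised the calls from 2744 to 4670 higher and from 2359 to 4642 lower. The added glycolytic calls were thus not particular to this group. Hk2, a hexokinase, had 52.8, 56.5 and 44.2 CPM in the positive libraries and 8.75, 6.92 and 10.2 CPM in the inputs (log2 fold change 2.58 ± 0.20, adjusted p = 0.000129), while Pkm had 1509.8, 1522 and 1644 CPM in the positive libraries and 1586, 1571 and 1643 CPM in the inputs (-0.04, adjusted p = 0.845). Pfkfb3 (0.92, adjusted p = 0.0316) was the other higher gene and Pfkm (-0.57, adjusted p = 0.0405) and Pgam1 (-0.46, adjusted p = 0.0434) the lower ones. These last 3 calls were lost without input 421 or any 1 positive library (adjusted p = 0.0547 to 0.144), and those of Pfkm and Pgam1 with the block (0.0944 and 0.103).

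Noncoding RNAs that stay in the nucleus were lower in 3 of 10 listed (median -0.70), beside 18.3% lower over all genes. Xist, which coats the inactive X chromosome, had 63.3, 58.2 and 96.8 CPM in the positive libraries and 330.5, 440.3 and 162 CPM in the inputs (log2 fold change -2.10 ± 0.39, adjusted p = 0.00622), and Rian had 167, 189.9 and 261 CPM in the positive libraries and 463, 502 and 399 CPM in the inputs (log2 fold change -1.14 ± 0.21, adjusted p = 0.00571). Malat1 had 404, 508 and 814 CPM in the positive libraries and 682, 602 and 3178 CPM in the inputs (-1.37, adjusted p = 0.15), with input 960 several fold above every other library. Snhg11 was the third lower RNA (-0.81, adjusted p = 0.0476), a call lost with the block (0.083) and without either of inputs 421 and 953 or positives 421 and 953 (adjusted p = 0.101 to 0.149).

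The departure of input 960 followed transcript length in the medians over bins of genes. In that library 1328 genes were at least 2-fold above and 1339 at least 2-fold below the mean log2 value of the other inputs, computed on log2(CPM + 0.5). The same counts were 243 and 157 for input 421 and 211 and 142 for input 953, and at most 58 and 33 for any positive library against the other positives. Genes were placed in 5 bins of 2479 to 2482 by the length of their longest transcript in GENCODE. The bins had median lengths of 1534.5, 2599, 3525, 4605 and 6963.5 bases. In these bins the median departure was 0.66, 0.11, -0.16, -0.36 and -0.62. For positive 960 against the other positives it was -0.01, -0.01, -0.01, -0.01 and 0.02. All 77 ribosomal protein genes, which are short, were higher in input 960 than in the mean of the other inputs (median 1.48). Kif13b, a kinesin, reached 1.95 CPM in input 960, while inputs 421 and 953 held 31.7 and 37.5 CPM. For Gabbr2, a GABA-B receptor subunit, 15.4 CPM in input 960 stood beside 216 and 187 CPM in the other inputs. At the other end Samd11 reached 28.7 CPM in input 960, while the others held 2.10 and 1.93 CPM. Its smaller depth and the length trend were both found in this 1 library, and their part in the results was not tested beyond leaving it out.

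**Figure D4:**
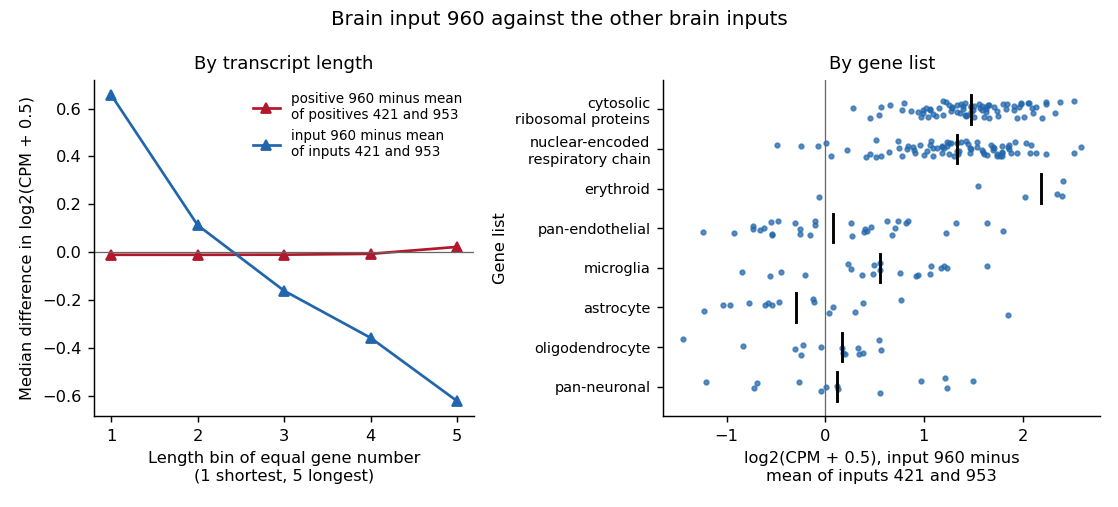
Median log2 difference of 1 library from the mean of the others of its fraction, by bin of transcript length from short to long for positive 960 and for input 960 (left), and the same difference of input 960 for each member of 8 gene groups, with a bar at each median (right). Input 960 runs from 0.66 in the shortest to -0.62 in the longest bin, and positive 960 stays between -0.01 and 0.02, while the ribosomal protein genes lie to the right of 0 at a median of 1.48.

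The same fractions of retina, whose vessels also form a barrier, were used to test whether the enrichment differed between the tissues. The enrichment in brain minus that in retina was tested over the 11618 genes listed in both tables, with edgeR's quasi-likelihood test on 12 libraries and Benjamini-Hochberg adjustment. It differed for 1713 genes (14.7%), greater in brain for 1129 (9.72%) and smaller for 584 (5.03%). The split depended on the scaling. Greater differences made up 65.9% of calls with the scaling used, 43.6% with DESeq2 size factors, 45.4% with library sizes and 41.6% in DESeq2, and the median difference over all genes was 0.03 against -0.13 in each of those 3. Without brain input 960 the counts were 1819 greater and 2649 smaller. Leaving out brain positive 421, brain positive 953 or any 1 of the retina inputs gave 638 to 703 greater and 230 to 287 smaller genes. Smaller differences numbered 348 without retina positive 953 and 371 with the replicate block.

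Of the 9792 genes listed through both fractions in both tissues 940 (9.60%) were greater and 456 (4.66%) smaller. The genes below passed in the same direction under every scaling. Prom1, a membrane protein of cell protrusions that retinal photoreceptors need, had log2 fold changes of 5.12 ± 0.39 in brain and -0.15 ± 0.12 in retina (difference 5.39 ± 0.38, adjusted p = 8.6e-06, edgeR). Gngt2, the cone transducin subunit, had 3.94 ± 0.56 in brain and -1.10 ± 0.14 in retina (difference 5.19 ± 0.58, adjusted p = 0.000186). Kdr, the main VEGF receptor of endothelium, had 5.14 ± 0.32 in brain and 0.19 ± 0.23 in retina (difference 5.07 ± 0.41, adjusted p = 2e-05). For Kdr the positive fractions averaged 161 ± 39.1 CPM in brain and 147 ± 56.5 CPM in retina, and the inputs 4.44 ± 1.32 CPM in brain and 129 ± 15.2 CPM in retina (SD, n = 3 each, scaled within each tissue). The pull-downs of the tissues thus differed by less than their spread, and the inputs by more. Prom1 had 355 ± 142 CPM in the brain pull-down and 566 ± 27.2 CPM in the retinal one, with 10.1 ± 2.78 CPM and 630 ± 68.3 CPM in the brain and retinal inputs. Susd3 and Trib3 had differences of 4.51 and 4.27. Kdr, Susd3 and Trib3 were listed in the brain table through its positive fraction alone, which favours enrichment there, and Prom1 and Gngt2 through both fractions in each tissue.

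Genes with the opposite difference were led by Mal, at 1.13 ± 0.17 in brain and 6.52 ± 0.24 in retina (difference -5.28 ± 0.30, adjusted p = 2.85e-06). Its positive fractions averaged 561 ± 67.4 CPM in brain and 326 ± 55.2 CPM in retina, and its inputs 256 ± 30.5 CPM in brain and 3.50 ± 1.04 CPM in retina. Apod, an apolipoprotein, had -0.31 ± 0.27 in brain and 4.82 ± 0.44 in retina (difference -5.02 ± 0.56, adjusted p = 0.000167), and Gatm, which makes a creatine precursor, had 0.20 ± 0.20 in brain and 4.49 ± 0.21 in retina (difference -4.19 ± 0.30, adjusted p = 8.74e-06). All 3 had log2 fold changes of 4.49 or more in retina, and in brain Mal alone of the 3 was called higher. Fgfr3, Itgb4 and Lmo7 completed the 6, with differences of -4.49, -4.49 and -4.29, and all 6 were listed in the retina table through its positive fraction alone, which favours enrichment there. The call of Lmo7 was lost without both brain fractions of replicate 953 (adjusted p = 0.0544).

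By group, 8 of 20 genes of the Wnt/beta-catenin pathway measured in both tissues had greater enrichment in brain and 2 smaller, and the 8 were 4 to 9 under the alternatives tried. They were 4 without brain positive 421, brain positive 953, retina input 953, retina input 960 or retina positive 953, and 5 without retina input 421 or with DESeq2 size factors or library sizes. Of 15 MHC class I genes 6 were greater in brain (2 to 9 under the alternatives, with 9 without brain input 960 and 4 without brain positive 421, retina input 421 or retina input 953). Of 32 pan-endothelial genes 5 were greater, among them Kdr, and 4 smaller. These groups were not the only ones with such shares. Immediate early genes were greater in 6 of 14 and smaller in 1, and barrier transporters greater in 7 of 27 and smaller in 1. Nuclear noncoding RNAs were smaller in 5 of 9 and greater in 0. Among members listed through both fractions in both tissues, 6 of 10 Wnt/beta-catenin genes, 4 of 10 MHC class I genes and 4 of 12 pan-endothelial genes were greater, and 0, 0 and 2 smaller.

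**Figure D5:**
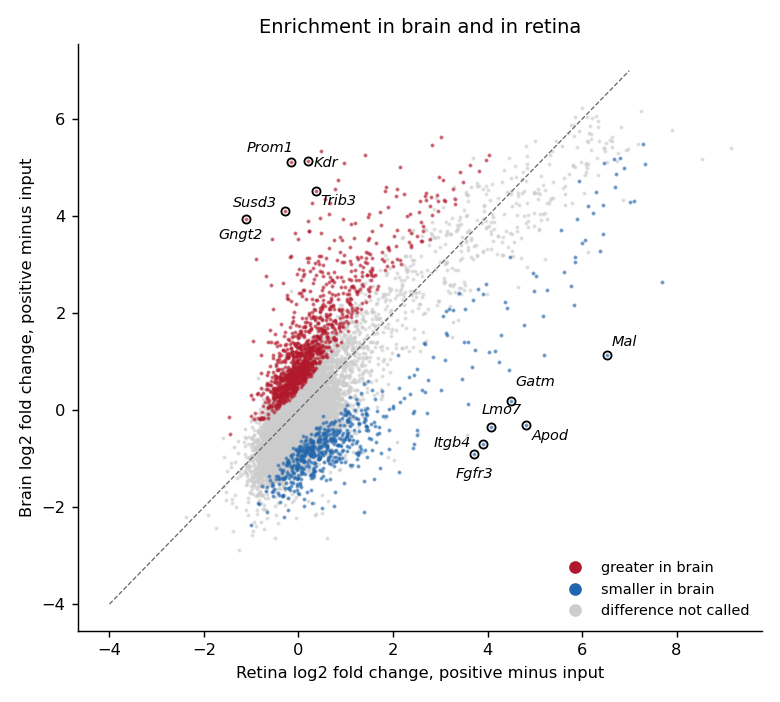
Log2 fold change of the positive over the input fraction in brain (vertical) against the same in retina (horizontal), 1 point per gene in both tables, with genes whose difference was called coloured and 11 named genes labelled. Kdr lies at 5.14 in brain and 0.19 in retina, and Mal at 1.13 in brain and 6.52 in retina.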

How the data were processed

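Brain RNA was sequenced from directional libraries of a positive and an input fraction, 3 each. The deposited raw values are expected counts, of which 90.2% are not whole within 0.001, and were rounded for the tests. The normalized columns hold log2 values that the authors centred on the median input (dividing each library's raw values by a single factor and taking that median off the log2 value gave 99.9% of them within 0.001), and they were not tested. The table keeps a gene, per the file headers, if every library of either fraction reaches 50 counts, and all 12919 genes met this. The submitters' processing notes name DESeq and mm10, and no aligner or counter is named there. Of the genes, 12401 matched GENCODE vM21, of which 100% lay on the listed chromosome and 86.9% started less than 1000 bases away. Depth was 18618427 to 28277853 counts in positive libraries and 9596740 to 32064355 in inputs, and input 960 had the fewest.

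Fractions were compared with edgeR 4.0.16 in R 4.3.3 (TMM, filterByExpr, which removed 0 genes, quasi-likelihood F test on 4 residual degrees), after the procedure had been tested on simulated data. The brain minus retina difference had 8 residual degrees and used 11618 genes. Replicate numbers pair the fractions, since input and positive came from 1 lysate per the labels' protocol. The deviations of same-numbered libraries correlated at 0.18, 0.025 and 0.077, and those of different-numbered ones at -0.12 to 0.038. The main test ignored this pairing, since the study's methods as given state no block. The block on the number was an alternative beside DESeq2 1.42.0, limma 3.58.1 (voom), other scalings and filters, and leaving out libraries.

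Genes were named by 4 rules: the 12 highest and 12 lowest called fold changes at 10 CPM or more without overlap, per list the 4 called members with the smallest adjusted p and the 2 most abundant others, the markers, and the 6 differences at each end between brain and retina. Some genes that these rules name are not reported here. For input 960 the departures were ranked. The members, gene lists and tests were chosen with earlier results of these data known, and a kinase and a pair of wrongly matched genes were dropped from the ribosomal and respiratory lists after values were seen. List genes were looked up by symbol (505) or Ensembl ID (17), and 50 were not in the table.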

Additional observations from a re-analysis of the deposited data

Results flagged for a closer look

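The difference in enrichment between brain and retina, tested as 1 term over 12 libraries with edgeR's quasi-likelihood test and Benjamini-Hochberg adjustment, brought out 11 named genes. Greater in brain were Prom1 (5.39), Gngt2 (5.19), Kdr (5.07), Susd3 (4.51) and Trib3 (4.27), as log2 brain minus retina. Smaller in brain were Mal (-5.28), Apod (-5.02), Fgfr3 (-4.49), Itgb4 (-4.49), Lmo7 (-4.29) and Gatm (-4.19). These are differences of enrichment and not of level in the pull-down. All 6 genes smaller in brain had a higher mean CPM in the brain pull-down. Apod averaged 243 CPM there and 20.7 CPM in the retinal one, with inputs of 300 and 0.705 CPM. Of the genes greater in brain, Prom1 and Susd3 had lower means in the brain pull-down, and Gngt2, Kdr and Trib3 higher ones. The adjusted p-values ran from 2.85e-06 for Mal to 0.00962 for Lmo7. For 10 of the 11 the call held under all 24 alternatives, and for Lmo7 it was lost without both brain fractions of replicate 953 (adjusted p = 0.0544). Kdr, Susd3 and Trib3 entered the brain table through its positive fraction alone, and the 6 genes smaller in brain entered the retina table in the same way, which favours enrichment in that tissue.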

How the results depend on the processing

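Of 141 named genes called in brain, 94 kept their call under every alternative tried, 47 lost it under at least 1 and none changed sign, while 32 of 38 named genes that were not called passed under at least 1. With all libraries kept, DESeq2 called Cx3cl1, Ets2, Glul, Igf2, Mobp, Slc17a7 and Smad9 (adjusted p = 0.00767 to 0.0242). In limma-voom Ifi27l1, Psmb10 and Xaf1 passed (adjusted p = 0.0201 to 0.0455). Under DESeq2 size factors, library sizes, DESeq2, limma-voom, no filter, a mean of at least 5 CPM and the replicate block, each count of higher and lower brain genes stayed within 1.5 times the value reported, and the block gave 2504 higher and 1663 lower genes. The block changed no call of a named gene other than those given with their values above. Leaving out 1 library or both fractions of 1 replicate moved the counts most. Genes called higher ranged from 1291 (without both fractions of 953) to 4758 (without both of 960), and lower from 164 to 4860 in the same settings. At least 2-fold higher ranged from 1291 to 2265, and at least 2-fold lower from 164 to 1676, in the same settings. With both fractions of a replicate left out, 2 libraries of each fraction estimate the spread, and for 421 and 953 input 960 is 1 of them.

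For brain minus retina, genes greater in brain numbered 715 with DESeq2 size factors and 679 with library sizes, and from 274 (without both brain fractions of 953) to 1831 (without both of 960) in the settings that leave libraries out. Genes smaller in brain numbered 926 with DESeq2 size factors, 1491 in DESeq2 and 371 with the replicate block, and from 77 (without both retina fractions of 953) to 2649 (without brain input 960). The cause was not tested. No gene called with all libraries was called in the opposite direction in any of these settings.

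The sign of 6 uncalled genes turned. Unc5b was at -0.023 with library sizes and ranged from -0.041 to 0.075 as libraries were left out, Tfrc from -0.085 to 0.29, Tnfrsf21 from -0.0045 to 0.34, Gatm from -0.026 to 0.44, Hba-a1 from -1.18 to 0.31 and Pvalb from -0.90 to 0.28. Depth limits low genes most in input 960, the shallowest library, where the header's minimum of 50 counts is the highest share of the total.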
